A study of Mus musculus with 12 samples.

Results

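The 26S proteasome is the protease complex that degrades ubiquitin-tagged proteins. Its 20S core is a barrel of alpha and beta rings, and the 19S regulatory particle on its ends binds, unfolds and feeds in the substrate with a ring of ATPases. Other caps, the activators, can open the same core, dedicated chaperones assemble both particles, and after interferon the immunoproteasome subunits replace the catalytic beta subunits. In skeletal muscle this system degrades much of the contractile protein lost during wasting, and when proteasome capacity falls short the transcription factor NFE2L1 raises the subunit genes together.

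The genes described here are those whose symbol starts with Psma, Psmb, Psmc, Psmd, Psme or Psmg followed by a digit, and the rule took 46 of the 15113 genes counted. They are 7 alpha and 7 beta subunits of the 20S core, 2 immunoproteasome subunits, 6 ATPases and 11 non-ATPase subunits of the 19S particle, 4 activators, 4 chaperones of the core and 3 chaperones of the 19S base. Psmc3ip, a cofactor of meiotic recombination, and Psme2b, a copy of Psme2, were also caught by the name and are kept apart as 2 genes of other function. Psmb9, Psmb11 and Psma8 were not analysed here.

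The cells were myotubes of C2C12, a line of mouse myoblasts whose cells fuse when serum is withdrawn, after 5 days of differentiation. One set of 6 libraries came from myotubes exposed for 16 h to 20 μM BAM15, a mitochondrial protonophore that lets protons bypass ATP synthase, dissolved in DMSO. The other 6 came from vehicle-treated myotubes. All 12 thus come from 1 cell line in culture, without a genetic change, and the labels do not say whether libraries of a condition were separate cultures, so the p-values measure only the spread between these libraries.

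Each of the 10 myotube markers examined was detected, with mean normalized counts of at least 5191 in vehicle and at least 4602 after BAM15. Their summed level was 450595 to 509127 normalized counts in vehicle and 428120 to 557258 after BAM15. By the rule given below, 2 of the 10 were higher (20.0%, against 18.7% of all tested genes) and 3 lower (30.0%, against 17.7%). Acta1 and Myog rose by 0.46 and 0.37 on the log2 scale, and Mymk, Mylpf and Ckm fell by 0.27, 0.23 and 0.17. These changes partly offset each other in the sum. With other settings or with 1 library left out, the call of Acta1 was never lost. Those of Myog, Mymk, Mylpf and Ckm were lost in 5, 6, 12 and 7 such alternatives. The 8 markers of proliferating myoblasts summed to 5675 to 6705 in vehicle and 2600 to 3481 after BAM15, with none at 0, so that the groups did not overlap. Of these 8 genes, 5 were lower and 1, Myf5, was higher. Whether a smaller share of undifferentiated cells has a part in the results below was not tested, and in bulk RNA fewer cells of a type and less RNA per cell cannot be told apart. Total counts were 13983725 to 18866728 per library. The library chemistry reads only transcript 3′ ends, so the counts do not scale with its length, and normalized counts are the reads scaled by the TMM method to a common library size.

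Of the 46 genes, 45 had enough reads for testing, and Psmb8 did not. The 46 genes together took 0.987 to 1.03% of the counts of each vehicle library and 0.878 to 0.901% of each BAM15 library, so that the groups did not overlap. The single genes moved little. Differences were tested with the quasi-likelihood method of edgeR, p-values were adjusted over all tested genes after Benjamini and Hochberg, and a gene was called at an adjusted p below 0.01 and a base mean above 50 normalized counts. On this rule 1 of the 45 genes was higher after BAM15, the core chaperone gene Psmg4. That is 2.22% of them, against 18.7% of the 12730 genes tested. The same test called 5 lower, or 11.1%, against 17.7% of all tested genes. These were Psmb3, Psmd1, Psmd3, Psmd12 and Psme4. None changed by more than 2-fold, which 7.28% of all genes did in either direction under the same rule. All 6 BAM15 libraries lay above all 6 vehicle libraries for 1 gene (2.22%, against 17.1% of all genes) and below them for 4 (8.89%, against 17.0%). With adjusted p below 0.05 as the limit, 4 genes were higher and 11 lower. The log2 fold change was negative in 34 genes and positive in 11, with a median of −0.14 against 0.02 over all tested genes, and ranged from −0.34 in Psme2 to 0.59 in Psmg2. Of these signs, those of Psmd11 and Psmg3 turned with the scaling, and scaling by library size alone gave 36 negative genes with a median of −0.19.

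**Figure D1:**
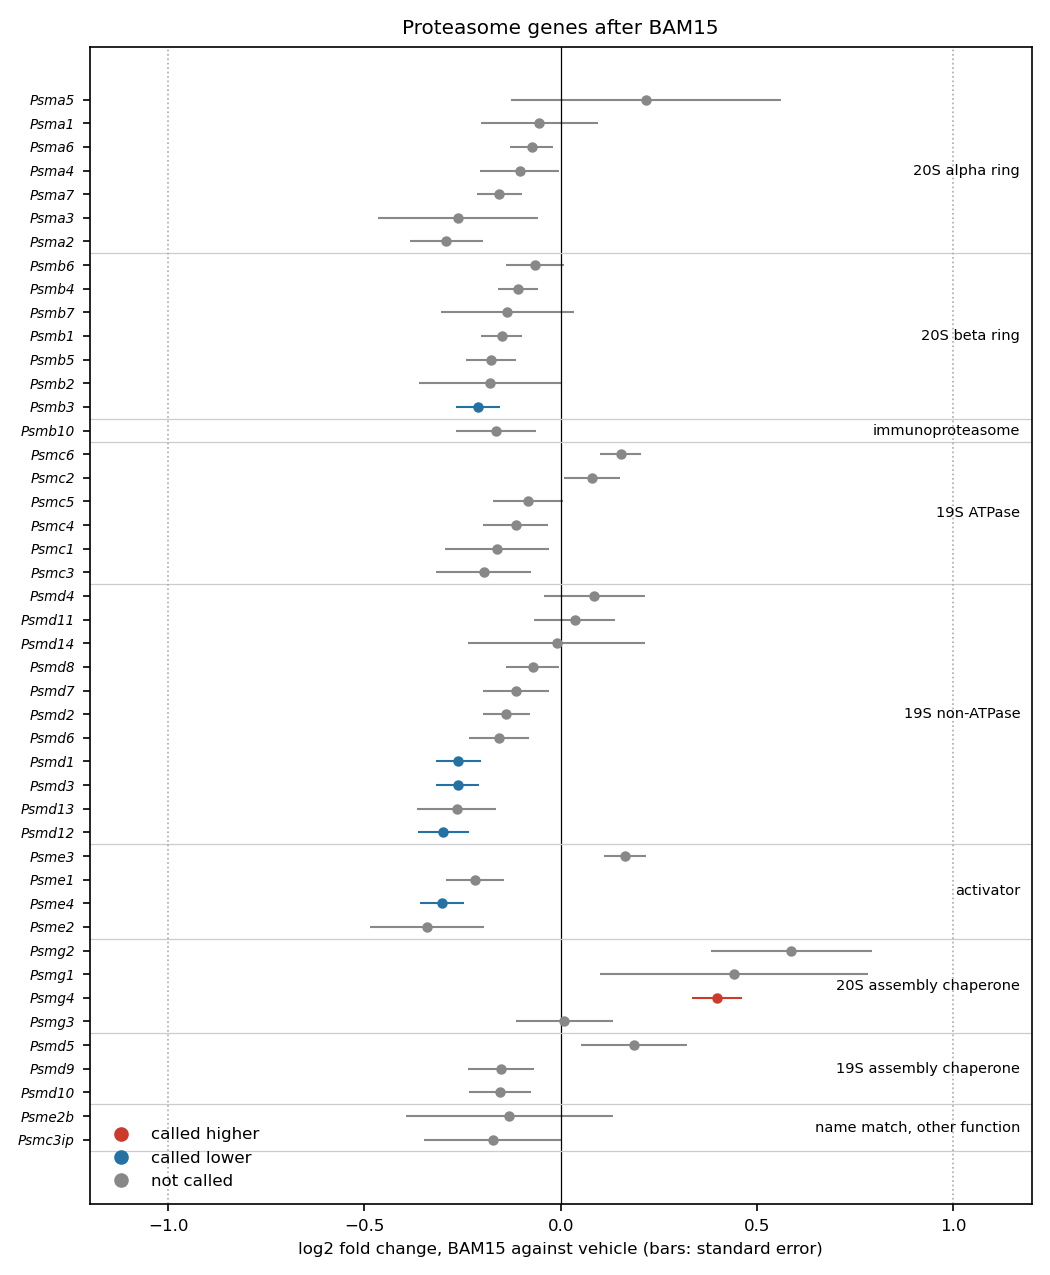
Log2 fold change (x axis, BAM15 against vehicle, bars show the standard error) of the 45 tested proteasome genes grouped by role, with dotted lines at 2-fold. Psmg4 is the only gene called higher, 5 are called lower, and all lie between −0.34 and 0.59.

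The 20S core forms the proteolytic chamber from stacked rings, in which the beta subunits Psmb5, Psmb6 and Psmb7 carry the active sites and the alpha subunits gate the entrance. Of its 14 genes, 13 had a negative log2 fold change (median −0.14), and 1, Psmb3, passed the test. Psmb3 (chromosome 11, 97703399 to 97713500), a non-catalytic beta subunit, had 3866 to 4317 normalized counts in the vehicle libraries (median 4109) and 3276 to 3838 in the BAM15 libraries (median 3537). All 6 BAM15 libraries lay below all 6 vehicle libraries, and the gene fell by 0.21 on the log2 scale (standard error 0.06, edgeR, adjusted p = 0.0053). The call depended on which libraries were used. It was lost within libraries numbered 1 to 3 (log2 fold change −0.12, edgeR, adjusted p = 0.0902) and with the library number as a replicate block (edgeR, adjusted p = 0.011). It was also lost when BAM15 replicate 4, 5 or 6 or vehicle replicate 1, 3, 4 or 5 was left out, at log2 fold changes of −0.22 to −0.19. When the last 400 bases of its transcript were cut into overlapping windows of 50 bases, 64.1% of them also occurred in the gene models Gm4950 or AC114990.1, and a read from such a window could be counted elsewhere.

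Among the alpha subunits the log2 fold changes ran from −0.29 in Psma2 to 0.22 in Psma5, and 0 of 7 passed the test. Psma2 had 5718 to 6432 normalized counts in vehicle (median 6142) and 3852 to 5975 after BAM15 (median 4867), with overlapping groups and an adjusted p of 0.0153 by edgeR. Psma5 had 291 to 442 normalized counts in vehicle (median 369) and 180 to 907 after BAM15 (median 354). Its BAM15 libraries lay on both sides of every vehicle library. Of its 3′ windows, 53.8% are shared with other gene models. Within the beta ring all 7 log2 fold changes were negative, from −0.21 in Psmb3 to −0.07 in Psmb6. The catalytic genes had 664 to 753 normalized counts of Psmb5 in vehicle against 547 to 691 after BAM15, 4688 to 5656 of Psmb6 against 4294 to 5553, and 2894 to 3557 of Psmb7 against 1807 to 4195. All 3 pairs of groups overlapped. Of the 3′ windows of Psmb5, 65.0% are shared with the gene model Gm3375. In all, 9 of the proteasome genes share over 10% of these windows, among them Psmc1 (12.3%), Psmd2 (29.1%) and Psme1 (17.4%).

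The immunoproteasome was measured through Psmb8 and Psmb10, which take the places of Psmb5 and Psmb7. Psmb8 had 0 to 3 reads in the BAM15 libraries and 0 to 4 in the vehicle libraries, 19 reads in all, so a change was not detectable at this depth and no fold is given. Psmb10 had 392 to 466 normalized counts in vehicle (median 418) and 308 to 449 after BAM15 (median 369), with overlapping groups, a log2 fold change of −0.16 (standard error 0.10) and an adjusted p of 0.188 by edgeR. The log2 ratio of Psmb10 to Psmb7 counts, with 0.5 added to each, was −2.90 ± 0.69 (SD, n = 6) after BAM15 and −2.91 ± 0.18 (SD, n = 6) in vehicle, a difference of 0.01 (two-sided exact permutation test over the libraries, p = 0.959, adjusted p = 0.981 over 2 ratios). For Psmb8 to Psmb5 the log2 ratio was −8.62 ± 1.02 (SD, n = 6) and −8.60 ± 1.07 (SD, n = 6), a difference of −0.02 (exact permutation p = 0.981, adjusted p = 0.981) that rests on the 0 to 4 Psmb8 reads. The smallest p this permutation test can give with 6 libraries against 6 is 0.00216. The difference of the Psmb10 to Psmb7 log2 ratio was 0.51 within libraries numbered 1 to 3 and −0.49 within 4 to 6. That of Psmb8 to Psmb5 was 0.33 and −0.38. By the same permutation test the adjusted p was 0.2 for Psmb10 to Psmb7 within 4 to 6 and 0.8 for Psmb8 to Psmb5 within 1 to 3. With 3 libraries against 3 this test cannot give a small p, however far apart the groups lie. The Psmb10 to Psmb7 log2 ratios did not overlap in either range. Within 1 to 3 they were −2.43 to −2.06 after BAM15 and −3.00 to −2.68 in vehicle. Within 4 to 6 they were −3.77 to −3.36 and −3.18 to −2.87. The signs were thus opposite in the number ranges. Opposing effects are not established, because this test cannot decide on them, and the Psmb8 values rest on 0 to 4 reads.

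In the 19S particle, 3 of 17 genes passed the test, all lower and all non-ATPase subunits. This is 17.6% of them, near the 17.7% of all tested genes that were lower, and 13 of 17 log2 fold changes were negative (median −0.11). Psmd1 (chromosome 1, 86064387 to 86139151), one of the large scaffold subunits of the base, had 8688 to 9634 normalized counts in vehicle (median 9016) and 6873 to 8267 after BAM15 (median 7495). It fell by 0.26 on the log2 scale (standard error 0.06, edgeR, adjusted p = 0.00134) without overlap between the groups. The readthrough model Gm21972 on the same strand shares 72.9% of its 3′ windows, so reads of the 2 models may have been divided. Psmd3 (chromosome 11, 98682554 to 98695979), a lid subunit, had 5708 to 6632 normalized counts in vehicle (median 6423) and 4784 to 5492 after BAM15 (median 5309). It also fell without overlap, by 0.26 on the log2 scale (standard error 0.05, edgeR, adjusted p = 0.000842). Psmd12 (chromosome 11, 107479484 to 107504362), another lid subunit, had 1766 to 1995 normalized counts in vehicle (median 1974) and 1388 to 1823 after BAM15 (median 1531). It fell by 0.30 on the log2 scale (standard error 0.06, edgeR, adjusted p = 0.00119), although BAM15 library 5 lay above vehicle library 5. In a fit of libraries numbered 4 to 6 alone these calls were lost, at adjusted p = 0.0359 for Psmd1, 0.0156 for Psmd3 and 0.122 for Psmd12 by edgeR. A model of 4 groups, condition by number range, was also fitted to all 12 libraries. There the effects within 4 to 6 had adjusted p = 0.00978, 0.00241 and 0.0618 by edgeR.

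The remaining lid and base genes did not pass. Psmd4, a ubiquitin receptor, had the highest log2 fold change of the non-ATPase genes (0.09, standard error 0.13), with 8106 to 9674 normalized counts in vehicle (median 9118) and 6959 to 11684 after BAM15 (median 9867). Psmd14, the deubiquitinase that removes ubiquitin chains from the substrate, had 1561 to 2064 in vehicle (median 1820) and 1049 to 2808 after BAM15 (median 1650). Among the 6 ATPases, which unfold the substrate and push it into the core, 0 passed. Their log2 fold changes ran from −0.20 in Psmc3 to 0.15 in Psmc6. Psmc3 had 15267 to 18167 normalized counts in vehicle (median 17528) and 11313 to 18481 after BAM15 (median 15192). Psmc6 had 3177 to 3570 in vehicle (median 3254) and 3402 to 3967 after BAM15 (median 3670), and its adjusted p was 0.0223 by edgeR. In both genes the groups overlapped.

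Of the 4 activators, 1 passed the test. Psme4 (chromosome 11, 30771726 to 30880361), which encodes a large single-chain cap, had 3470 to 4385 normalized counts in vehicle (median 4014) and 3073 to 3420 after BAM15 (median 3221). Its groups did not overlap, and it fell by 0.30 on the log2 scale (standard error 0.06, edgeR, adjusted p = 0.00037). Within numbers 4 to 6 the adjusted p was 0.0202 by edgeR in a fit of those libraries alone and 0.00548 in the model of 4 groups. Psme1 and Psme2 encode the subunits of the interferon-inducible cap and Psme3 those of the nuclear cap. Psme1 had 812 to 908 normalized counts in vehicle (median 852) and 640 to 823 after BAM15 (median 749). Psme2 had 579 to 766 (median 667) and 346 to 719 (median 507), and 68.9% of its 3′ windows are shared with Psme2b. In contrast, the log2 fold change of Psme3 was positive, 0.16, with 1128 to 1299 normalized counts in vehicle (median 1201) and 1282 to 1424 after BAM15 (median 1357). The adjusted p-values of these 3 genes were 0.0204, 0.0624 and 0.0173 by edgeR, and each pair of groups overlapped.

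For the chaperones of the 20S core all 4 log2 fold changes were positive (median 0.42), and 1 gene passed the test. The median of the 4 was 0.03 within libraries numbered 1 to 3 and 0.62 within 4 to 6. These proteins pair up to place alpha subunits into the first ring before the beta subunits join. Psmg4 (chromosome 13, 34162964 to 34178173) had 619 to 774 normalized counts in vehicle (median 705) and 882 to 1011 after BAM15 (median 912). Every BAM15 library lay above every vehicle library, and the gene rose by 0.40 on the log2 scale (standard error 0.06, edgeR, adjusted p = 7.64e-05). It kept its call under every alternative tried, with log2 fold changes of 0.32 to 0.46. Psmg2 had 570 to 763 normalized counts in vehicle (median 632) and 535 to 1419 after BAM15 (median 922), with a log2 fold change of 0.59 and an adjusted p of 0.0278 by the same edgeR test. Its partner Psmg1 had 75.5 to 152 in vehicle (median 105) and 54.0 to 275 after BAM15 (median 135), with a log2 fold change of 0.44 and a standard error of 0.34. Psmg3 had 667 to 864 in vehicle (median 740) and 539 to 941 after BAM15 (median 773), with a log2 fold change of 0.01 whose sign turned with the scaling. For all but Psmg4 the groups overlapped.

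The 3 chaperones of the 19S base did not pass. Psmd5 had 453 to 508 normalized counts in vehicle (median 473) and 417 to 782 after BAM15 (median 479). Psmd9 had 498 to 554 (median 528) and 370 to 536 (median 490), and Psmd10, also known as gankyrin, 1142 to 1320 (median 1262) and 947 to 1316 (median 1105). Their log2 fold changes were 0.19, −0.15 and −0.15. The genes of other function did not pass either. Psmc3ip had 46.8 to 69.6 normalized counts in vehicle and 32.0 to 70.4 after BAM15, and Psme2b 9.56 to 23.5 and 9.72 to 16.9.

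Library numbers run from 1 to 6 in each condition, and within BAM15 libraries 4 to 6 stood apart from 1 to 3. The labels name no batch for them. The split was taken from an earlier account of these same data, so the tests of it below are descriptive and not independent support for it. In a model with a group for each condition and number range, 18 of the 45 genes were higher in BAM15 libraries 4 to 6 than in 1 to 3 and 18 were lower at adjusted p below 0.05 by edgeR. This is 40.0% in each direction, against 18.6% of all genes higher and 20.2% lower. All genes include many with fewer reads, which pass a test less easily, and no share at like abundance is given. Between the vehicle libraries 0 of the 45 genes differed by this edgeR test, with 3 at an unadjusted p below 0.05. Over all genes the vehicle comparison gave 0 at adjusted p below 0.05 and 696 unadjusted. The summed level of the 10 myotube markers was 522212 to 557258 normalized counts in BAM15 libraries 1 to 3 and 428120 to 467850 in 4 to 6, and in the same model 7 of them were lower in 4 to 6 and 0 higher. The 8 myoblast markers summed to 2600 to 2819 and 3153 to 3481. Of these, 5 were higher in libraries 4 to 6. They were Cdk1, Myf5, Id3, Ccnb1 and Id1, by 1.46, 1.42, 1.33, 0.35 and 0.28 on the log2 scale. Mki67 and Top2a were lower, by −0.51 and −0.41. Genes of dividing cells thus went both ways, Cdk1 and Ccnb1 up and Mki67 and Top2a down. The part of cell composition or of sample handling in this split was not tested.

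**Figure D2:**
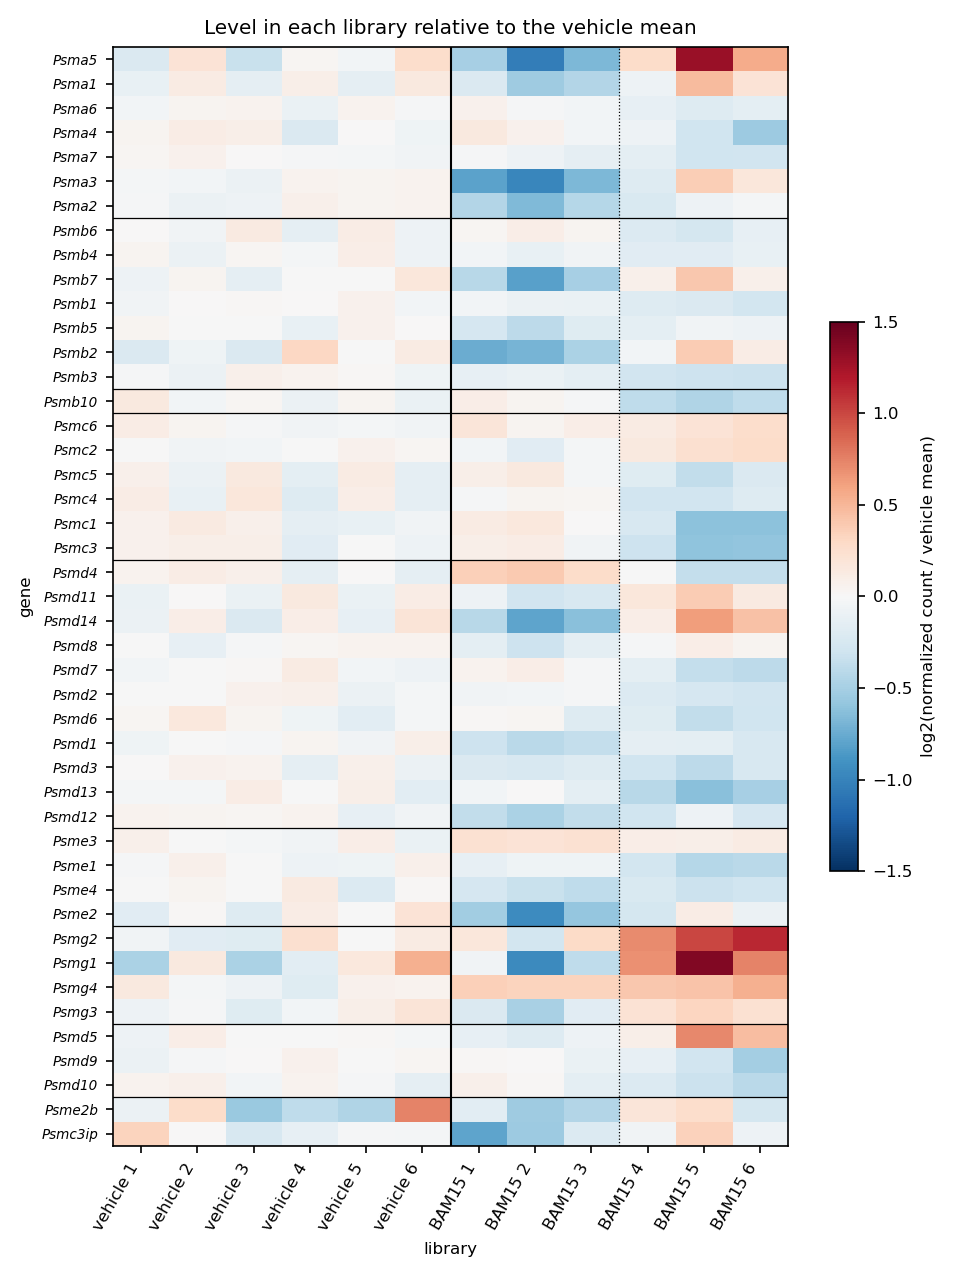
Heat map of the level of each of the 45 tested proteasome genes (rows, grouped by role) in each library (columns), as log2 of the normalized count over the vehicle mean. The vehicle libraries are pale, while BAM15 libraries 4 to 6 (right of the dotted line) differ from 1 to 3, red for Psma5, Psmg1, Psmg2 and Psmd14 and blue for Psmc1 and Psmc3.

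Every ring and particle held genes of both kinds. In the alpha ring, Psma5 had 261, 180 and 231 normalized counts in BAM15 libraries 1, 2 and 3 and 448, 907 and 543 in libraries 4, 5 and 6, a 2.82-fold higher mean (log2 standard error 0.26, edgeR, adjusted p = 0.00165). In the same ring Psma1, Psma2 and Psma3 were also higher in libraries 4 to 6, by 0.61, 0.40 and 0.94 on the log2 scale. Psma4 and Psma7 of this ring were lower there, by −0.35 and −0.17. In the beta ring, Psmb2 and Psmb7 were higher by 0.80 and 0.76, and Psmb6, Psmb3 and Psmb1 were lower by −0.26, −0.19 and −0.15.

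Of the 6 ATPases, 4 were lower in libraries 4 to 6 and 1, Psmc2, was higher (0.30). Psmc1 had 11023, 11244 and 10150 normalized counts in BAM15 libraries 1 to 3 and 8536, 6575 and 6573 in 4 to 6, a log2 difference of −0.58 (standard error 0.08). Psmc3 differed by −0.54. Of the 11 non-ATPase genes, 5 were higher and 5 lower, from −0.57 in Psmd4 to 1.01 in Psmd14. Psmd4 had 11440, 11684 and 10835 normalized counts in BAM15 libraries 1 to 3 and 8900, 6959 and 6986 in 4 to 6, so its libraries 1 to 3 lay above and most of 4 to 6 below the vehicle range.

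The core chaperones Psmg1, Psmg2 and Psmg3 were higher in libraries 4 to 6, by 1.39, 0.88 and 0.53 on the log2 scale. Psmg1 had 101, 54.0 and 80.9 normalized counts in BAM15 libraries 1 to 3 and 169, 275 and 176 in 4 to 6. Psmg2 had 727, 535 and 785 against 1059, 1297 and 1419. Psmg4 differed by 0.11 (adjusted p = 0.296 by edgeR), and its 896, 883 and 882 normalized counts lay beside 927, 939 and 1011.

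The effect of BAM15 against vehicle was then compared between the number ranges. The difference of the effects passed an adjusted p below 0.05 for 4 of the 45 genes, or 8.89%, against 2.66% of all genes in this edgeR model. Here too the shares are not matched for abundance. Psma3, an alpha subunit, had vehicle counts of 1502 to 1660, BAM15 counts of 918, 811 and 1003 in libraries 1 to 3 and of 1402, 2058 and 1799 in 4 to 6. The log2 effect of BAM15 was −0.76 within numbers 1 to 3 and 0.08 within 4 to 6, a difference of 0.84 (standard error 0.15, edgeR, adjusted p = 0.0442). Psmd14 had BAM15 counts of 1352, 1049 and 1175 in libraries 1 to 3 and of 1947, 2808 and 2457 in 4 to 6, against 1561 to 2064 in vehicle. Its log2 effects were −0.54 and 0.35, a difference of 0.89 (edgeR, adjusted p = 0.0444).

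The catalytic Psmb7 had BAM15 counts of 2371, 1807 and 2238 in libraries 1 to 3 and of 3328, 4195 and 3345 in 4 to 6, with log2 effects of −0.51 and 0.14 and a difference of 0.65 (edgeR, adjusted p = 0.0444). Exons of Nek6 on the opposite strand cover all 400 of its last bases, and the strand used for counting is not given in the sources used here. Psmd13, a lid subunit, went the other way, with BAM15 counts of 4495, 4667 and 4193 in libraries 1 to 3 and of 3474, 3010 and 3293 in 4 to 6. Its log2 effects were −0.08 and −0.49, a difference of −0.41 (edgeR, adjusted p = 0.0488). In 18 of the 45 genes the effects had opposite signs in the 2 ranges, a count of values and not of tests. The share over all tested genes is not given, so this count cannot be read as particular to the proteasome genes. The log2 effects of Psmg4 (0.32 and 0.47), Psmd3 (−0.26 in both) and Psme4 (−0.33 and −0.27) lay close together.

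**Figure D3:**
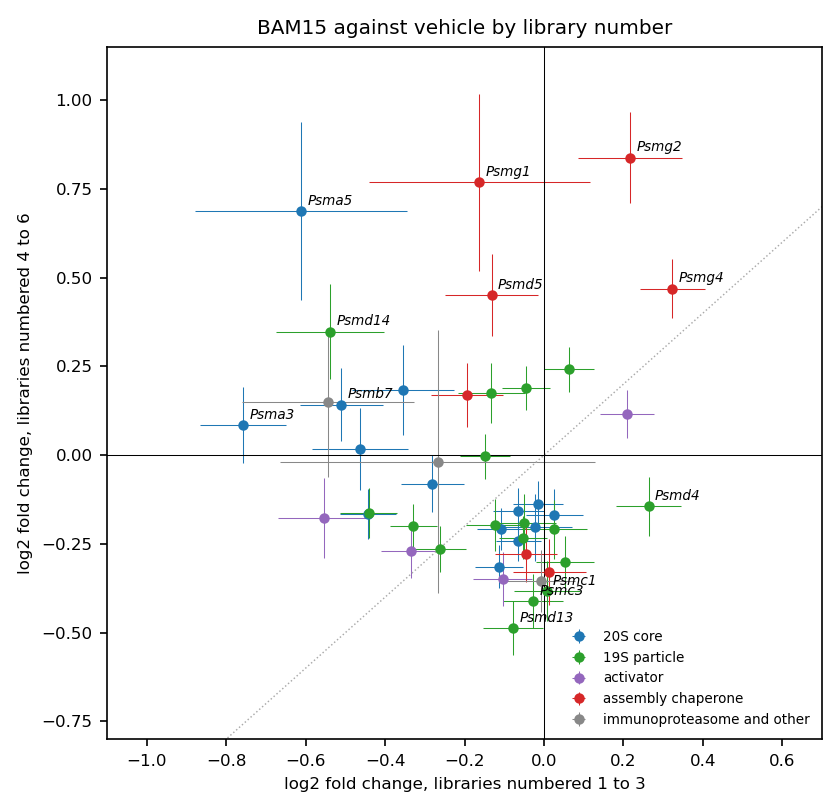
Log2 fold change of BAM15 against vehicle within libraries numbered 1 to 3 (x axis) and 4 to 6 (y axis) for the 45 genes, bars show the standard error, colours the role, and the dotted line equal effects. Psma5, Psmd14, Psmb7 and Psma3 lie left of 0 and above 0, and Psmg4 and Psmg2 are positive on both axes.

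The median coefficient of variation of the tested proteasome genes was 6.59% in vehicle and 13.5% after BAM15, and it was higher after BAM15 in 39 of 45 genes (86.7%). Over the 10412 genes at or above a base mean of 52.1 normalized counts, the medians were 8.42% and 12.9%, and 76.2% of genes varied more after BAM15. The difference between BAM15 libraries 4 to 6 and 1 to 3 had a Pearson's r of −0.28 and a Spearman's rho of −0.37 with the GC content of the last 400 transcript bases over the 45 genes. Over 11706 genes these were −0.18 and −0.22. The points share their libraries and are not independent, so this is a description only. The median GC content was 44.25% in the 18 genes higher in libraries 4 to 6 and 49.0% in the 18 lower. With log2 transcript length the 45 genes gave an r of −0.06 and a rho of −0.11. The part of GC content in the split was not tested.

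The promoters bear on whether the genes share a landmark for a common regulator. RefSeq promoter windows (GRCm38.p6) were matched for 39 of the 46 genes, and the 250 bases before the annotated start were searched on both strands. The core of the antioxidant response element, TGACNNNGC, which NFE2L1 binds together with a small MAF protein, occurred in 5 of the 39 windows (12.8%), against 10.2% of 32851 windows of the same length. The 5 stretches are shown because these genes belong to different particles and only Psmd12 among them passed the test, in the lower direction. Capitals mark the motif or its reverse complement, each stretch is read 5′ to 3′ on the strand of its gene, and positions are counted from the annotated start with negative numbers upstream.
Psmb5: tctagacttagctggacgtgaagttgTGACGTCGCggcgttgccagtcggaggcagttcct
Psmb6: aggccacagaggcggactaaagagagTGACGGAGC
Psmc6: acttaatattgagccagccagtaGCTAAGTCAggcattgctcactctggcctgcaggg
Psmd12: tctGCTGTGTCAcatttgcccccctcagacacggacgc
Psmd9: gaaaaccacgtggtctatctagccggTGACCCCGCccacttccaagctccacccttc

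The Psmb5 stretch lies at chr14:54618008-54618068 on the minus strand with the motif at −47. On the plus strand, the Psmb6 stretch lies at chr11:70525322-70525356 with the motif at −9 and the Psmd9 stretch at chr5:123228133-123228189 with the motif at −31. In Psmc6 (chr14:45329574-45329631, plus strand, motif at −227) and Psmd12 (chr11:107479278-107479315, plus strand, motif at −247) the match is the reverse complement. The log2 fold changes of the 5 genes after BAM15 were −0.18 for Psmb5, −0.07 for Psmb6, 0.15 for Psmc6, −0.30 for Psmd12 and −0.15 for Psmd9. The GC box GGGCGG occurred in 21 of the 39 windows (53.8%, against 32.7% of all windows), CCAAT in 12 (30.8%, against 33.8%) and TATAAA in 4 (10.3%, against 12.4%). TGATGNAA, the core of the amino acid response element, occurred in 1 (2.56%, against 3.45%). For every motif, the antioxidant response element included, the proteasome side holds 1 window per gene. The full set holds every window of all genes, expressed here or not, so the shares compare unlike sets. Of the 39 windows, 35 matched the start of the transcript used. The Psmd13 window with the TGATGNAA match and the Psmb8 window with a TATAAA match start 426 and 405 bases from it. A match of letters is a description and not a site of binding.

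The genes that control the subunit genes were examined next. From a list of 16 genes around NFE2L1, 6 were higher (37.5%, against 18.7% of all tested genes) and 3 lower (18.8%, against 17.7%), with a median log2 fold change of 0.13 against 0.02 over all tested genes. Apart from Mafk and Fbxw7, the genes of this list named here were chosen after their values were seen. Nfe2l1 itself had 4288 to 5401 normalized counts in vehicle (median 4998) and 7866 to 9804 after BAM15 (median 8628), without overlap. It rose by 0.82 on the log2 scale (standard error 0.08, edgeR, adjusted p = 3.16e-07). The small MAF genes Mafk, Maff and Mafg, whose proteins are its binding partners, rose by 1.00, 1.00 and 0.92 on the log2 scale. Mafk had 481 to 512 normalized counts in vehicle and 886 to 1130 after BAM15 and just passed the 2-fold rule. Sel1l and Derl1, which serve the removal of proteins from the endoplasmic reticulum, rose by 0.78 and 0.67.

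Fbxw7, the substrate receptor of a ubiquitin ligase that targets NFE2L1, had 3097 to 3658 normalized counts in vehicle (median 3298) and 1376 to 1992 after BAM15 (median 1537). It fell by 1.07 on the log2 scale without overlap (standard error 0.08, edgeR, adjusted p = 3.13e-08). Btrc, another such receptor, fell by 0.40, and Vcp, the ATPase that extracts NFE2L1 from the endoplasmic reticulum, fell by 0.24. Ddi2, the protease that releases active NFE2L1, had a log2 fold change of 0.15 and an adjusted p of 0.0501 by edgeR, and Ngly1, which removes its sugars, one of −0.03.

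Of 4 genes for ubiquitin and its activating enzymes, 1 was higher (25.0%) and 0 lower. Ubb, a polyubiquitin gene, had 10710 to 12856 normalized counts in vehicle (median 12376) and 17541 to 20632 after BAM15 (median 18874), without overlap, and rose by 0.65 on the log2 scale (standard error 0.06, edgeR, adjusted p = 5.43e-07). Rps27a, which encodes ubiquitin fused to a ribosomal protein, had 4545 to 5616 in vehicle (median 4918) and 3721 to 11631 after BAM15 (median 6278), with overlapping groups and an adjusted p of 0.101 by edgeR. The activating enzymes Uba1 and Uba6 had log2 fold changes of −0.09 and −0.005. Sequence shared with other genes was searched for the proteasome genes only.

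Subunits and partners outside the name pattern numbered 19 tested genes, of which 8 were higher (42.1%, against 18.7% of all tested genes) and 1 lower (5.26%, against 17.7%). The 19S subunits of this list, Adrm1 and Sem1, had log2 fold changes of 0.06 and 0.01 and were not called. Both were named after their values were seen. Zfand2a and Zfand5, zinc finger proteins that associate with the proteasome under stress, rose by 0.90 and 0.60 on the log2 scale. Zfand2a had 372 to 448 normalized counts in vehicle (median 434) and 503 to 1014 after BAM15 (median 769). Zfand5 had 1484 to 1898 (median 1722) and 1888 to 3183 (median 2532), with overlapping groups. The following members of the list were singled out after their values were seen. Akirin2, which carries proteasomes into the nucleus, rose by 0.52. The ubiquilin shuttle genes Ubqln1, Ubqln2 and Ubqln4 rose by 0.24, 0.42 and 0.43, the deubiquitinase gene Uchl5 by 0.27 and the regulator gene Psmf1 by 0.26. The calls of Ubqln2, Uchl5 and Psmf1 ended in 16, 10 and 13 alternatives, several of them the omission of 1 library. Pomp, the chaperone that matures the core, had 11873 to 15209 normalized counts in vehicle (median 13212) and 9046 to 11404 after BAM15 (median 11093) and fell by 0.34. Its direction was opposite to that of Psmg4, and its groups did not overlap.

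**Figure D4:**
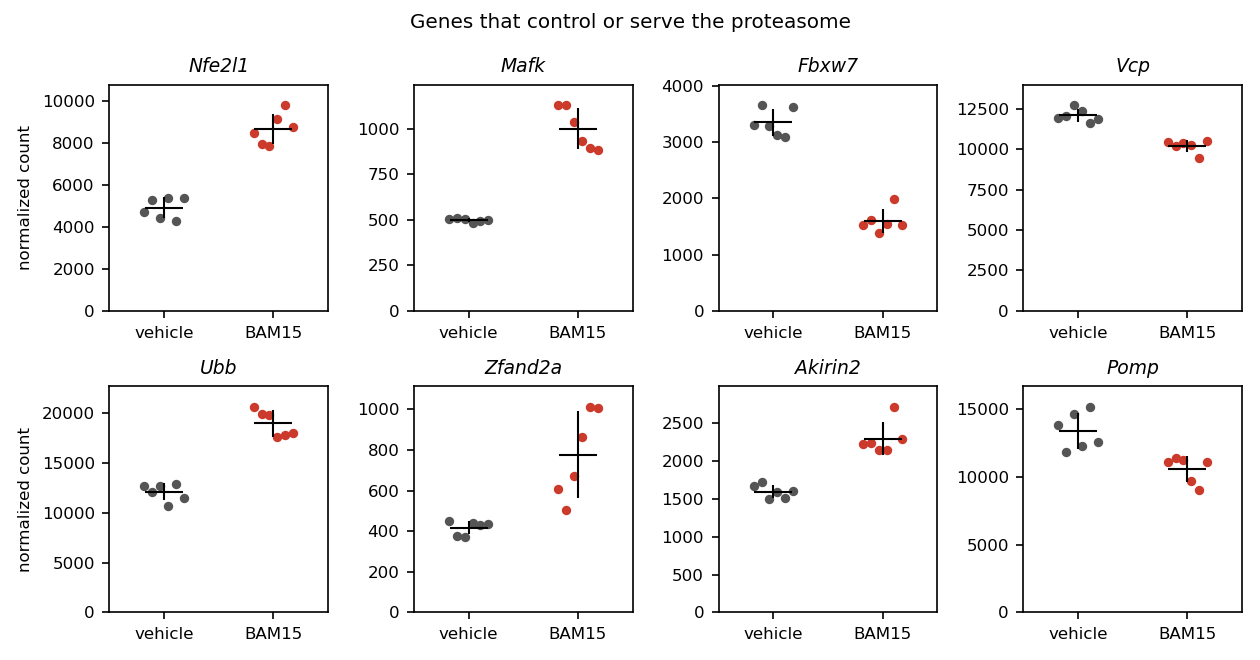
Normalized counts (y axis, from 0) of 8 genes that control or serve the proteasome in the 6 vehicle and the 6 BAM15 libraries, points show libraries 1 to 6 from left to right, the horizontal bar the mean and the vertical bar the SD. Nfe2l1, Mafk, Ubb, Zfand2a and Akirin2 are higher after BAM15 and Fbxw7, Vcp and Pomp lower, without overlap.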

How the data were processed

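RNA of C2C12 myotubes treated with BAM15 or vehicle was measured in 12 libraries, all of which were used. The authors prepared 3′ QuantSeq libraries and processed the reads with BlueBee software, and they deposited raw counts of reads per Ensembl gene. The submitters' processing notes name GRCm38 (mm10) and DESeq2 1.22.2. The aligner, the annotation and the strand used in counting are not given in the sources used here. Read length is 50 bp in the labels and 75 bp in the methods of the study. The authors also deposited a normalized signal, which equals the counts over a size factor of 0.836 to 1.07 per library and served here for gene symbols and for 1 alternative. A further 11 columns of other samples were not used.

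The proteasome genes, all gene lists and the split of the library numbers were chosen with earlier results of these data known. From the counts, filterByExpr of edgeR 4.0.16 in R 4.3.3 kept 12730 genes, TMM factors were 0.932 to 1.04, and a robust quasi-likelihood model with condition as its only term was fitted to all of them. The Benjamini-Hochberg method adjusted p-values over these genes. Calls follow the thresholds of the study (adjusted p below 0.01, base mean above 50), with its 2-fold limit given apart. Base mean is the mean normalized count of the 12 libraries. Library numbers 1 to 3 and 4 to 6 were compared in a model of 4 groups at adjusted p below 0.05. Tests were also run on simulated data.

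Genes are named by a rule that covers every proteasome gene and, of the other lists, those past 2-fold and the 2 with the largest log2 fold change of each list. Some genes that this rule takes are not reported here. Genes of these lists that the text names outside the rule were chosen after their values were seen. Ratios used exact permutation over libraries, and a planned ratio of Psmb9 to Psmb6 was not analysed here. Alternatives used DESeq2 1.42.0, limma 3.58.1 (voom, and limma-trend on log2 of the deposited normalized signal plus 1), other scalings, filters and terms, and each library left out in turn. Same-numbered libraries do not count as pairs. The annotation for positions and transcript ends was GENCODE M21 on GRCm38, and figures were drawn with matplotlib 3.10.9. Reads are not independent molecules, so statements on 0 or few counts cover counting error only.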

Additional observations from a re-analysis of the deposited data

Results flagged for a closer look

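For 4 proteasome genes and 4 genes of the other lists the effect of BAM15 differed between library numbers 4 to 6 and 1 to 3 in the edgeR model (adjusted p below 0.05, Benjamini-Hochberg). The difference on the log2 scale was 0.84 for Psma3, 0.65 for Psmb7, −0.41 for Psmd13 and 0.89 for Psmd14. For Cdk1 it was 1.14, for H2-D1 0.52, for Rps27a 0.94 and for Tapbp −0.39.

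In 8 of the 232 groups of 6 libraries examined (116 genes in each condition), the highest or lowest library stood apart from the other 5 by more than Dixon's 95% limit, which chance alone gives in about 1 group in 20. Psmc3ip had 69.6 normalized counts in vehicle library 1, against 46.8 to 55.3 in the others. BAM15 library 5 stood apart in Akirin2 (2716), Ubqln2 (528) and Vcp (9474). The other values were 1427 for Tapbp in vehicle library 6, 5533 for B2m in vehicle library 3, 5470 for Ckm in vehicle library 4 and 2799 for Top2a in vehicle library 5.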

How the results depend on the processing

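The count of higher and of lower proteasome genes was 1 and 5. It was 2 and 8 with DESeq2's Wald test, 3 and 10 with a term for numbers 1 to 3 against 4 to 6, 3 and 13 within numbers 1 to 3, and 4 and 11 at adjusted p below 0.05. Scaling by library size alone gave 13 lower, limma-trend 10 lower and numbers 4 to 6 alone 2 higher. The 2 number ranges hold fewer samples. For the other settings the cause was not tested. Leaving out each library gave 1 to 2 higher (2 without BAM15 replicate 2) and 4 to 6 lower. A difference of effects between number ranges was called for 12 genes with DESeq2 and 8 with library size alone, against 4. The replicate block of library numbers gave 6 calls, 5 shared, and lost Psmb3. Deviations of same-numbered libraries correlated at 0.197, 0.0261, 0.311, 0.16, −0.0756 and 0.285, the labels state no pairing, and 2 of 12 libraries correlated best with their own number.

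Signs turned for 19 genes, none of them called in the fit reported above. The turned value of Psma5 within numbers 1 to 3 did pass the adjusted p limit of 0.01 (edgeR, adjusted p = 0.00398). Within numbers 1 to 3 the log2 values were −0.14 (Psmd11), 0.0218 (Psmb6), 0.0217 (Psmc5), 0.0036 (Psmc1), −0.16 (Psmg1), −0.13 (Psmd5), −0.0486 (Psmc2), 0.0093 (Psmd9), −0.20 (Psmg3), 0.0491 (Psmd7) and −0.61 (Psma5). Within 4 to 6 they were −0.16 (Psmd4), 0.14 (Psmc3ip), 0.13 (Psmb7), 0.34 (Psmd14), 0.0077 (Psmb2), 0.17 (Psma1) and 0.0752 (Psma3). Psmd11 was −0.0177 by library size and −0.0353 by limma-trend, and Psma5 −0.0493 by limma-trend. Psmg3 was −0.0101 by upper quartile, −0.0111 with the replicate block, −0.01 with the number term, −0.0423 by library size, −0.0147 by limma-voom and −0.0682 by limma-trend. Leaving out libraries gave −0.0464 to 0.093 (Psmd11), −0.18 to 0.11 (Psmd14), −0.0611 to 0.0913 (Psmg3), −0.19 to 0.0253 (Psma1), −0.15 to 0.38 (Psma5) and −0.23 to 0.0818 (Psme2b).

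The Psmb8 to Psmb5 ratio difference was 0.0199 with pseudocount 1, 0.33 within numbers 1 to 3 and −0.38 within 4 to 6, and that of Psmb10 to Psmb7 0.51 and −0.49. Without single libraries they were −0.38 to 0.33 and −0.15 to 0.19. Of 45 genes called or named from the other lists, 12 lost a call under at least 1 alternative. Among partners, Psmf1 (13 alternatives), Ubqln2 (16) and Uchl5 (10) lost theirs most often. Signs turned for 5 of the 45, none called. Within numbers 1 to 3 the log2 values were −1.12 (Sem1), −0.0541 (Rps27a), 0.0389 (Uba1) and 0.0827 (Uba6), and Ngly1 was 0.12 within 4 to 6. Sem1 was −0.0072 by upper quartile, −0.0135 by library size, −0.36 by limma-voom, −0.42 by limma-trend, −0.34 with the replicate block and −0.30 with the number term, and Uba6 0.0012 with 10 counts in every library. Leaving out libraries gave −0.48 to 0.21 (Sem1), −0.077 to 0.0094 (Ngly1) and −0.0434 to 0.0257 (Uba6). Psmb8 limits the immunoproteasome result, with 19 reads in all.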

Other observations

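The immunoproteasome belongs to class I antigen presentation, and 15 genes of that pathway and of the interferon response were tested. By edgeR with Benjamini-Hochberg adjustment 2 were higher (Irf9 and H2-D1, both by 0.54 on the log2 scale) and 3 lower (Tapbp by −0.62, Irf1 by −0.56 and Stat2 by −0.47), with a median of 0.19. That is 13.3% higher and 20.0% lower, against 18.7% and 17.7% of all tested genes. These 5 genes were named after their values were seen. Tap1, which pumps proteasome products into the endoplasmic reticulum, and Nlrc5, the activator of class I genes, had the largest log2 fold changes of the list, 2.11 and 2.07. Tap1 had 0.904 to 10.5 normalized counts in vehicle and 14.0 to 32.0 after BAM15, and Nlrc5 had 2.87 to 10.6 and 17.5 to 32.9. Neither pair of groups overlapped, but both genes lay under the base mean of 50 and were not called. The same holds for Gbp2, an interferon-induced GTPase gene named after its values were seen, which was 26.2 ± 5.63 (SD, n = 6) normalized counts in vehicle and 7.19 ± 4.60 (SD, n = 6) after BAM15, a log2 fold change of −1.88 (edgeR, adjusted p = 0.000141) without overlap. Tap2 had too few reads for testing. The call of H2-D1 ended in 16 alternatives.

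Sem1, a small subunit of the 19S lid that the name pattern misses, varied widely between libraries. It was chosen after its values were seen. It had 525 to 1603 normalized counts in vehicle, 462, 258 and 370 in BAM15 libraries 1 to 3 and 1184, 2544 and 1488 in libraries 4 to 6, with a log2 fold change of 0.01 (standard error 0.51) over all libraries.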
